A study of Mus musculus with 98 samples.

Results

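Tcf7l2, Prkcd, Lef1, Ramp3, Ntng1, Synpo2, Rgs16, Plekhg1 and Zic1 are genes with strong expression in the thalamus, the nuclei that lie directly under the dorsal hippocampus. These 9 named genes were followed in hippocampal RNA-seq libraries as a measure of thalamic tissue carried along in dissection. All 9 were found and passed the filter on low counts in each of the 6 count tables, among 55367 gene rows in the mouse tables. The 98 libraries comprised 55 from mouse hippocampus and 43 from cultured hippocampal neurons, in 22 groups.

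All mice received a PhP.eB virus, a capsid that crosses from blood into brain. It carried either upACSS2, made to raise the acetyl-CoA synthetase Acss2, or an empty vector. The labelled dose differed between the tables: 1.5e11 vg (vector genomes) in aged mice, 1.2e11 vg at 10 months and 1.5e10 vg in PS19 mice. The aged C57BL6 males (22-23 months, whole hippocampus, 12 with upACSS2 and 12 with vector) were sampled 30 min after recall of a remote context memory. For these mice the labels give injection behind the eye at 21-22 months and 2 months of virus. These add up to the labelled age only for injection at 21 months. The C57BL6 males of 10 months (dorsal hippocampus, 6 with upACSS2 and 5 with vector) carried the virus for 2 weeks and were sampled 30 min after fear conditioning. PS19 males, which carry a transgene for a mutant human tau under the mouse prion promoter, were injected at 2.5 months and sampled 1 month later (3.5 months old) or 6 months later (8.5 to 9 months old), 30 min after a 24-hour context recall, with 5 libraries in each of 4 groups. Among PS19 mice, the labels give whole hippocampus for the 1-month upACSS2 group and dorsal hippocampus for the remaining 3, so at 1 month the virus cannot be told apart from the dissected tissue. The treatment entry contradicts the title for the upACSS2 mice at 1 month and for 1 vector mouse of the same age, and groups were taken from the titles. The cultures were CD1 embryonic hippocampal neurons at day 9 or day 21, with upACSS2 or vector and then hAD-tau or PBS in 8 groups of 3, 4 stimulated groups of 3 at day 21, and day 21 neurons without virus that received tau (4) or PBS (3).

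Levels are given as CPM, counts relative to a library size that was scaled by the TMM method within each table. Library totals ranged from 5075099 to 33259982 counts in mice. The lowest count behind a mouse value was 2 for Lef1, in a 10-month library, and at least 12 for every other member. Acss2 itself had a median of 54.9 CPM (46.7 to 61.5) with upACSS2 against 48.1 (40.0 to 53.7) with vector in aged mice, and 57.5 (49.9 to 59.3) against 43.0 (42.3 to 48.8) at 10 months. In PS19 mice it was 318 (60.1 to 1465) against 52.8 (51.5 to 66.3) at 1 month and 101 (44.9 to 237) against 46.5 (43.1 to 56.0) at 6 months. The lowest PS19 upACSS2 library at each time lay inside the range of the vector libraries. In bulk tissue, fewer cells of a type and less RNA per cell cannot be told apart.

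The thalamus relays sensory and motor signals to the cortex through glutamatergic neurons, and its axons reach other regions while their cell bodies, which hold most of the RNA, stay in the thalamus. Tcf7l2, an HMG-box transcription factor at the end of the Wnt pathway, maintains the identity of thalamic neurons after they have stopped dividing. Lef1 belongs to the same TCF/LEF family, and Zic1 is a zinc-finger transcription factor of midline and thalamic territories. None of the genes is restricted to the thalamus. Tcf7l2 is also made in maturing oligodendrocytes, Lef1 in brain endothelium, Zic1 in meninges, and Prkcd and Ntng1 in neurons of other regions.

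The short sequence that TCF/LEF factors bind was searched for in the 250 bases before each start of the 9 genes, alternative starts included. The reason was that 2 of the genes encode such factors and the members were high together in single libraries. The letters TCAAAG, or CTTTGA for the other strand, were found in 2 of 14 windows (14.3%), against 13.8% of 32851 windows of that length over all genes. A match is a description of the sequence and not a site. The Lef1 window with matches belongs to an alternative start inside the gene, which begins at 131110471. The other Lef1 windows, at lower coordinates, held 0 matches. The windows with a match and the first Tcf7l2 window, which has none, are printed 5′ to 3′ on the gene's strand (RefSeq, GRCm38.p6), with matches in capitals.
Prkcd, chr14:30626209-30626458, minus strand: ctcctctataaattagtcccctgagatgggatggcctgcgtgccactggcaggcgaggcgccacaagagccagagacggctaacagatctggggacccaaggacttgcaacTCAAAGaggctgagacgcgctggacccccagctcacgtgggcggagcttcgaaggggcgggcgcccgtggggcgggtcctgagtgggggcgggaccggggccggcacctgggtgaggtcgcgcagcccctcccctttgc
Lef1, chr3:131156044-131156293, plus strand: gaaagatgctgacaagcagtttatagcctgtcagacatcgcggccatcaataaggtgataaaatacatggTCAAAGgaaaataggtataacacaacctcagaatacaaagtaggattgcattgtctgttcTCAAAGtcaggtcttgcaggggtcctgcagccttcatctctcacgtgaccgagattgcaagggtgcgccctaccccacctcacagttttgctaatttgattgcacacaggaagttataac
Tcf7l2, chr19:55741560-55741809, plus strand: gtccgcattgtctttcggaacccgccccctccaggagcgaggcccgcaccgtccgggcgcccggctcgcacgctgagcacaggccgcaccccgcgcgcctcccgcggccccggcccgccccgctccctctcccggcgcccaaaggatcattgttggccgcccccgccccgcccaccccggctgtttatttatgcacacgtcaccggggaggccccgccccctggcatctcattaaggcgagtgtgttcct

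Per kilobase of exon, the members spanned a wide range of levels in aged mice. Ntng1, at 6.37 ± 2.11 CPM per kb (SD, n = 24), stood highest, followed by Prkcd at 4.66 ± 1.94, Ramp3 at 4.11 ± 1.83 and Rgs16 at 3.97 ± 1.19. Plekhg1 (2.38 ± 0.73) and Zic1 (1.88 ± 0.99) lay in the middle. Tcf7l2 (0.71 ± 0.31), Synpo2 (0.59 ± 0.17) and Lef1 (0.28 ± 0.14) were lowest. The gap between neighbours in this order exceeded the larger of their SDs at 3 places, after Rgs16, after Zic1 and after Synpo2. In PS19 mice, Prkcd had the highest median at 7.52 CPM per kb and Lef1 the lowest at 0.19, and no neighbouring pair in the order of means was further apart than the larger SD. At 10 months Prkcd and Ntng1 led, with medians of 4.18 and 4.66 CPM per kb.

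At 10 months and in PS19 mice, single libraries stood far above the rest. The summed CPM of the 9 members had a median of 133.8 in aged mice, where the highest library, vector replicate 4, reached 205.8, or 1.54 times the median. At 10 months the median was 120.8 and vector replicate 2 reached 348, or 2.88 times the median, with the next library at 183. In PS19 mice the median was 134, and 2 libraries stood apart at 656 (the library labelled upACSS2 replicate 4 at 1 month, 4.88 times the median) and 510 (vector replicate 4 at 6 months, 3.80 times the median), with the next at 181. Below, these 3 libraries, whose sum exceeds 2 times their table's median (a rule chosen after seeing the data), are called the 3 high libraries. Their Acss2 levels were 48.8, 60.1 and 44.9 CPM, in the order just given, and the PS19 value of 60.1 is the lowest of its upACSS2 group.

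**Figure D1:**
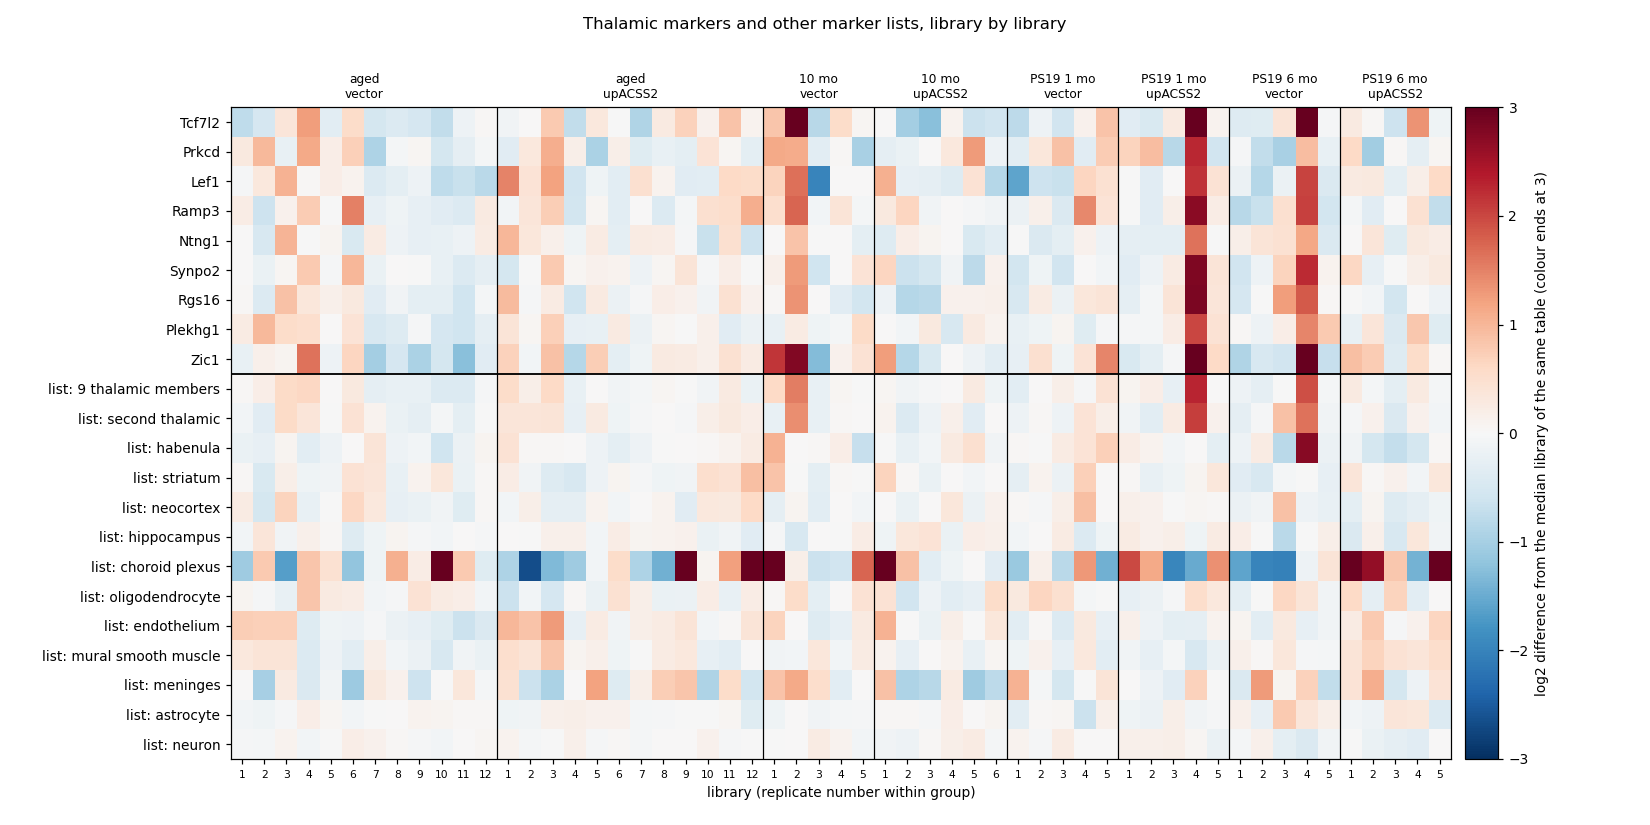
Members (upper rows) and summed marker lists (lower rows) in each mouse library (columns), as the log2 difference from the median library of the same table (colour, ending at 3). The high libraries appear as red columns over the members at 10 months (vector replicate 2) and in PS19 mice (upACSS2 replicate 4 at 1 month, vector replicate 4 at 6 months).

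Tcf7l2 (chr19:55741820-55933654, plus strand, GRCm38) was low in most libraries and far above the rest in the 3 high libraries. In PS19 mice at 1 month it was 3.77, 3.50, 5.81, 46.6 and 5.21 CPM in upACSS2 replicates 1 to 5 and 2.77, 4.30, 3.18, 5.31 and 8.78 CPM in vector replicates 1 to 5. At 6 months it was 5.84, 4.94, 3.10, 12.5 and 4.37 CPM with upACSS2 and 3.66, 3.76, 6.34, 62.8 and 4.73 CPM with vector. Outside the 2 high libraries no PS19 value exceeded 12.5 CPM, and the ranges of the virus groups overlapped at both times. At 10 months the vector libraries held 11.1, 83.4, 3.31, 9.07 and 6.36 CPM, and the 6 upACSS2 libraries ran from 2.38 (median 3.92) to 6.58 CPM. Vector replicate 2 was 10.8 times the median of the other vector mice, the largest ratio of any member there. In aged mice Tcf7l2 ran from 3.02 (median 6.27) to 10.49 CPM with upACSS2 and from 3.33 (median 4.45) to 14.03 CPM with vector, without a library as far from the rest.

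Zic1 (chr9:91358058-91365810, minus strand) followed the same libraries with other sizes. In PS19 mice at 1 month it was 7.39, 8.30, 9.92, 92.7 and 15.4 CPM with upACSS2 and 8.64, 14.3, 9.35, 13.5 and 28.5 CPM with vector. At 6 months it was 19.2, 17.4, 7.80, 15.1 and 10.5 CPM with upACSS2 and 5.37, 7.27, 6.86, 158 and 6.30 CPM with vector. Vector replicate 4 was 24.0 times the median of its group's other libraries, while those 4 lay below the lowest upACSS2 library. At 10 months the vector libraries held 35.9, 56.4, 3.07, 8.68 and 10.8 CPM, so that 2 of 5 were above all 6 upACSS2 libraries (4.29 to 19.3 CPM, median 6.76). Aged mice ranged from 5.25 (median 11.46) to 17.98 CPM with upACSS2 and from 3.98 (median 7.95) to 30.3 CPM with vector.

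Lef1 (chr3:131110471-131224356, plus strand), the least abundant member, reached 8.01 CPM in the high PS19 library at 1 month and 7.21 in that at 6 months, where the other 18 PS19 libraries ran from 0.48 to 2.69 CPM. At 10 months the vector libraries held 2.93, 6.09, 0.24, 1.74 and 1.74 CPM, and upACSS2 libraries ran from 0.83 (median 1.41) to 3.93 CPM. The value of 0.24 rests on the 2 counts named above. In aged mice it had medians of 2.54 CPM with upACSS2 (1.37 to 6.12) and 1.95 with vector (1.13 to 4.45).

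Prkcd (chr14:30595354-30626210, minus strand), protein kinase C delta, a signalling kinase abundant in thalamic relay neurons, varied in every group and not only in the high libraries. In PS19 mice at 1 month it was 66.7, 79.5, 23.3, 202 and 28.1 CPM with upACSS2 and 33.5, 53.2, 76.4, 32.8 and 71.2 CPM with vector. At 6 months it was 63.4, 20.1, 42.5, 34.3 and 43.7 CPM with upACSS2 and 40.8, 25.1, 21.1, 79.1 and 35.4 CPM with vector. The library with 202 CPM exceeded all others, but the 79.1 CPM of the high vector library was below the 79.5 CPM of upACSS2 replicate 2 at 1 month, a library that was not high for the other members. At 10 months vector replicate 2 (50.8 CPM) was matched by vector replicate 1 (51.0 CPM), beside 18.7, 23.9 and 11.8 CPM in replicates 3 to 5, and 1 upACSS2 library stood higher at 56.5 CPM (lowest 19.3, median 22.0). In aged mice Prkcd ran from 11.9 (median 22.0) to 49.9 CPM with upACSS2 and from 12.1 (median 23.3) to 51.1 CPM with vector.

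Ramp3, which modifies receptors of the calcitonin family, and Rgs16, which speeds the shut-off of G protein signals, showed the pattern of Tcf7l2 at smaller ratios. Ramp3 (chr11:6658521-6677475, plus strand) was 27.5 CPM in the high PS19 library at 1 month and 17.5 in that at 6 months, where the remaining 18 held 2.28 to 11.4 CPM. Rgs16 (chr1:153740349-153745468, plus strand) was 39.6 and 19.95 CPM in these libraries against 3.69 to 13.3 CPM in the rest. In 10-month vector replicate 2 they reached 14.3 and 19.3 CPM, above all other 10-month libraries (at most 6.52 and 8.33 CPM).

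Ntng1, Synpo2 and Plekhg1 encode proteins of axons and the cytoskeleton. Ntng1 (chr3:109780040-110144011, minus strand) makes netrin-G1, a membrane-anchored adhesion protein of thalamocortical axons. It was 23.1, 22.9, 22.7, 87.2 and 27.8 CPM in PS19 upACSS2 mice at 1 month and 31.7, 36.7, 38.5, 62.5 and 20.6 CPM in vector mice at 6 months. Outside these high libraries the 18 PS19 values stayed between 20.6 and 38.5 CPM, a narrow range. Its highest values of all were in aged mice, 98.6 CPM in upACSS2 replicate 1 and 100.3 CPM in vector replicate 3, where Tcf7l2 was 5.36 and 7.49 CPM. Synpo2 (chr3:123076519-123236149, minus strand), an actin-binding protein, reached 47.5 and 32.0 CPM in the high PS19 libraries against 4.47 to 10.7 CPM in the others. Plekhg1 (chr10:3740364-3967303, plus strand), a guanine nucleotide exchange factor, reached 105 and 71.2 CPM against 19.2 to 45.4 CPM, but at 10 months vector replicate 2 (32.1 CPM) was below vector replicate 5 (40.3 CPM).

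**Figure D2:**
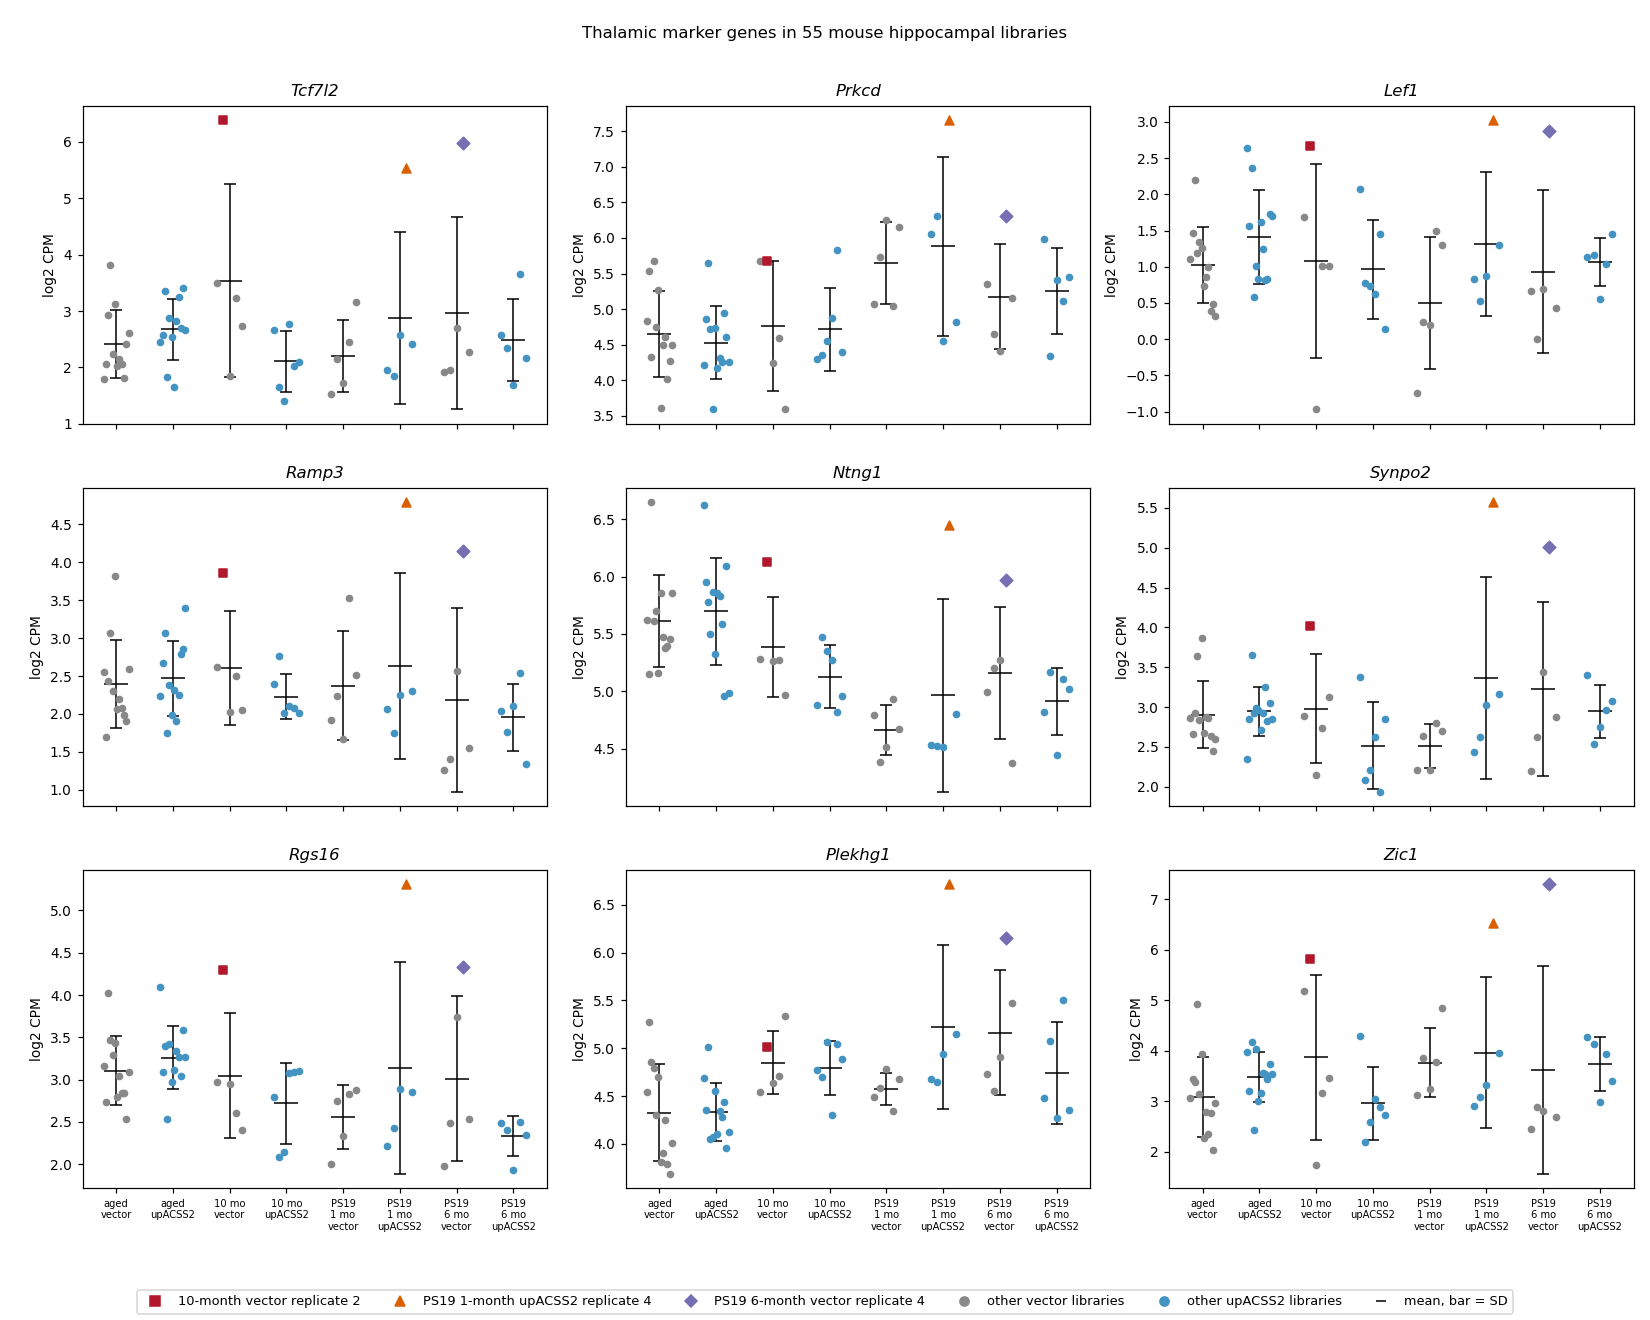
log2 CPM (y axis) of each member in every mouse library, by group (x axis). Points are libraries, horizontal lines are group means and bars are SDs; the 3 high libraries have symbols of their own, and they stand above all other Tcf7l2 values, whereas Prkcd is spread in all groups.

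The 3 high libraries differed in which members stood out most. Against every other library of its table outside the high ones, 7 of 9 members were highest in 10-month vector replicate 2 (14.7% of all genes tested were), 9 of 9 in the library labelled PS19 upACSS2 replicate 4 at 1 month (3.29% of genes) and 8 of 9 in PS19 vector replicate 4 at 6 months (5.49% of genes). These counts describe libraries that the members themselves singled out. The members' ratio to the median of the group's other libraries had a median of 2.92 in the 10-month library (1.27 for Plekhg1 to 10.8 for Tcf7l2), 6.31 in the PS19 library at 1 month (3.75 for Plekhg1 to 10.4 for Tcf7l2) and 4.82 in that at 6 months (1.83 for Ntng1 to 24.0 for Zic1). As a description with no error, the CPM above the median of the remaining libraries gave 0.623 units of Zic1 for each unit of Tcf7l2 in the 10-month library, 1.98 in the PS19 library at 1 month and 2.55 in that at 6 months.

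Other markers of the region, in lists chosen with earlier results of these data known, were also high in the same libraries. These sums and counts describe the libraries and are not independent support. A second list of 9 thalamic genes (Slc17a6, Rora, Shox2, Gbx2, Zic4, Tnnt1, Zfhx3, Cacna1g and Amotl1) summed to 388 CPM in 10-month vector replicate 2 against 113 to 165 in the other 10 libraries. It summed to 577 CPM in the PS19 library at 1 month and 427 in that at 6 months against 102 to 252 in the other 18. Of its 9 genes, 7, 9 and 8 exceeded, in the respective high library, every library of the table outside the high ones. Among all genes tested, 14.7%, 3.29% and 5.49% did. Shox2, a transcription factor of thalamic neurons named here after its values were seen, was 18.7, 30.1 and 16.6 CPM in the 3 libraries and at most 1.83 and 2.52 CPM in the others of the 10-month and PS19 tables.

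Markers of the medial habenula, a nucleus beside the thalamus, separated the 2 PS19 libraries. The list of 6 summed to 337 CPM in vector replicate 4 at 6 months against 29.0 to 82.5 in the 18 others, and all 6 genes were highest there. Gpr151, a habenular receptor, was 63.8 CPM there against 0.60 to 8.002, and the transcription factor Pou4f1 was 28.5 against 0 to 3.91 (both named after their values were seen). The list summed to 50.7 CPM in the library labelled upACSS2 replicate 4 at 1 month and to 35.2 CPM in 10-month vector replicate 2, both inside the range of their tables.

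Hippocampal markers were present in all 3 libraries. The list of 11 summed to 964 CPM in 10-month vector replicate 2, below the 1167 to 1785 CPM of the other 10, and to 1245 and 1339 CPM in the PS19 libraries, inside 775 to 1726 CPM. Markers of meninges were highest in the 10-month high library (61.6 CPM against 13.5 to 51.6), and oligodendrocyte markers there (7698 CPM) lay near the upper end of the others (3533 to 7728). In the PS19 library at 6 months neuron markers (3939 CPM) were below the other libraries (4211 to 6367), and in that at 1 month mural cell markers (48.9 CPM) were (54.6 to 107). Sums for striatum, neocortex, choroid plexus, endothelium and astrocytes were inside the range of the rest in all 3. The part of these lists in the members' levels was not tested.

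The first question of the design is whether the members differed between virus groups. In aged mice 0 of 9 members passed the edgeR test at an adjusted p of 0.05 (0% of 15157 genes did). At an unadjusted p under 0.05 there were 0 members and 846 genes, and DESeq2 called 1 gene, not a member. The member fold changes had a median of 0.10 on the log2 scale against 0.00 for all genes, with 7 of 9 positive. Lef1 had the largest, 0.46 ± 0.24 (SE, edgeR adjusted p = 0.879). The ranges of the groups overlapped for all 9, but the share over all genes is not given for this comparison, so this does not set the members apart.

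At 10 months 0 of 9 members passed (0% of 13629 genes; 1204 genes at an unadjusted p under 0.05, 4 called by DESeq2). All 9 had lower estimates with upACSS2, with a median of -0.44 against -0.01 for all genes. Tcf7l2 was at -2.35 ± 0.68 (edgeR adjusted p = 0.518) and Zic1 at -1.43 ± 0.57 (adjusted p = 0.544), the 2 members with an unadjusted p under 0.05. Without vector replicate 2, the values became -0.77 for Tcf7l2 and -0.81 for Zic1, and Prkcd, Lef1 and Rgs16 turned positive (0.065, 0.19 and 0.027).

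In PS19 mice at 1 month 0 of 9 members passed (0% of 15850 genes; 463 at an unadjusted p under 0.05, 1 called by DESeq2). All 9 estimates were higher with upACSS2, with a median of 0.91 against -0.01 for all genes. Synpo2 (1.44 ± 0.57), Rgs16 (1.14 ± 0.52) and Plekhg1 (0.91 ± 0.38) had an unadjusted p under 0.05 and an edgeR adjusted p of 0.964. Without the library labelled upACSS2 replicate 4, Tcf7l2 went from 1.46 to -0.063, Zic1 from 0.88 to -0.51, Ramp3 from 0.68 to -0.43, and Synpo2 from 1.44 to 0.33. The estimates of Prkcd (-0.13) and Ntng1 (-0.072) also turned negative.

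At 6 months 0 of 9 members passed (0% of genes; 2237 at an unadjusted p under 0.05, none of them members, and 135 called by DESeq2, none of them members). The median was -0.63 against -0.01 for all genes, and 8 of 9 estimates were lower with upACSS2, Zic1 at -1.39 ± 0.88 and Tcf7l2 at -1.37 ± 0.81 (edgeR adjusted p = 0.474 and 0.447). Without vector replicate 4 they became 1.11 and 0.44, and Lef1 (0.69), Ramp3 (0.24) and Synpo2 (0.13) turned positive as well. Without its high library, 4 of 9 estimates were positive at 1 month and 6 of 9 at 6 months.

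The comparisons over time use the same PS19 libraries. In vector mice, 6 months against 1 month, 0 of 9 members passed with edgeR or DESeq2, where 7.46% of genes passed with edgeR. At an unadjusted p under 0.05 there were 0 members and 3984 of 15850 genes. Tcf7l2 had an estimate of 1.76 ± 0.84 (edgeR adjusted p = 0.200), which became -0.067 without vector replicate 4, while Zic1 went from 1.32 to -1.19. In upACSS2 mice time cannot be told apart from the dissected tissue, which was whole hippocampus at 1 month and dorsal at 6 months, and the interaction below shares this limit. Here 0 of 9 passed with either tool, where 0.0442% of genes did with edgeR, and all 9 estimates were lower at 6 months. Rgs16, the only member with an unadjusted p under 0.05 (-1.38 ± 0.52, edgeR adjusted p = 0.271) was at -0.29 without the library labelled upACSS2 replicate 4 at 1 month, and Tcf7l2 went from -1.07 to 0.44. The difference of the virus effect between the times, an interaction term, passed for 0 of 9 members (0% of genes; 1956 genes and 4 members at an unadjusted p under 0.05; 3 genes called by DESeq2). The interaction estimates were all negative, with a median of -1.38 against 0.00, from -2.83 ± 1.18 for Tcf7l2 (edgeR adjusted p = 0.372) to -0.56 ± 0.68 for Prkcd. With both high PS19 libraries removed, an alternative chosen after seeing the data, Tcf7l2 was at 0.49 and Zic1 at 1.61. Prkcd, Lef1 and Ramp3 turned positive as well, while Ntng1, Synpo2, Rgs16 and Plekhg1 stayed negative.

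**Figure D3:**
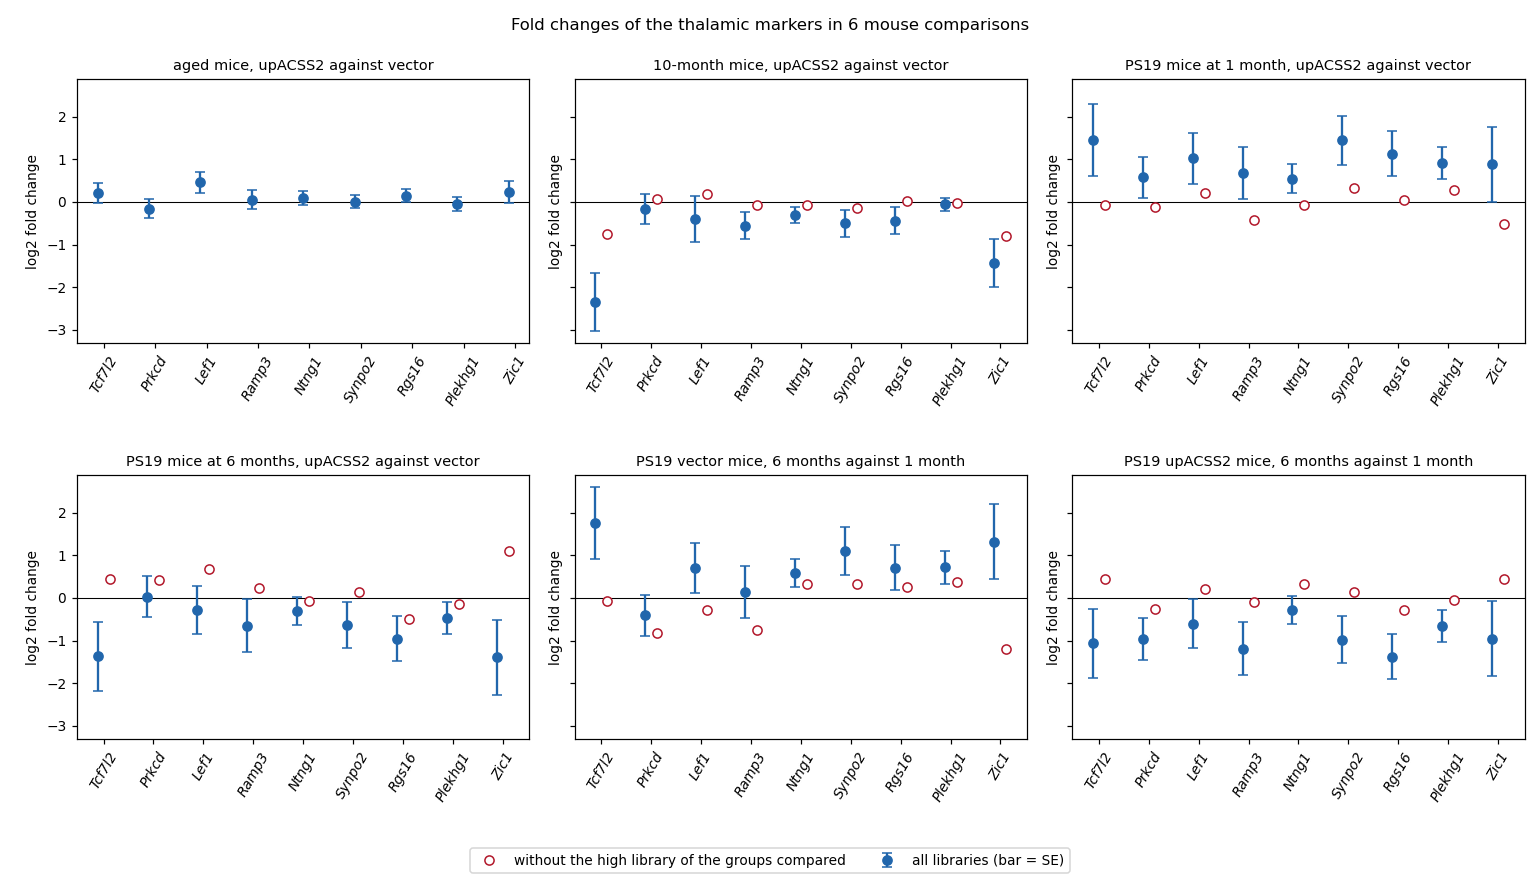
log2 fold changes of the members in the mouse comparisons. Filled points with bars are edgeR estimates with standard errors from all libraries, and open points are the estimates without the high library of that comparison. For PS19 mice at 1 month the filled points are all above 0, and the open points lie between -0.51 and 0.33.

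The members varied more between libraries of the same mouse group than most genes. They were chosen with earlier results of these data known, so their ranks among all genes are a description and not a test. Their SD of log2 CPM within groups had a median of 0.54 in aged, 0.61 in 10-month and 0.86 in PS19 mice, against 0.18, 0.19 and 0.22 for all genes tested. The members' median rank in SD was the 93.7th percentile in aged mice, the 96.6th at 10 months and the 96.9th in PS19 mice. Without the 3 high libraries, an alternative chosen after seeing the data, it was the 93.6th at 10 months (median member SD 0.50) and the 86.9th in PS19 mice (0.52, against 0.23 for all genes), while aged mice hold no such library. In the neuron tables it was the 72.2nd (unstimulated), the 78.9th (stimulated) and the 83.4th (no virus).

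Variation was shared among members, but unevenly. Because the members were chosen with earlier results of these data known, the shares among all genes given below are no test of them. After group means were removed, the 36 pairs of members had a median Pearson r of 0.44 over 24 aged libraries (Spearman rho 0.39), 0.54 over 11 libraries at 10 months (rho 0.39) and 0.81 over 20 PS19 libraries (rho 0.66). The points of each table share libraries and their depth. An r over 0.5 was found for 16, 20 and 32 of the 36 pairs, against 6.75%, 10.1% and 6.32% of pairs among all genes (1 gene in 10 taken). Without the high libraries the median was 0.14 at 10 months (6 pairs over 0.5) and 0.33 in PS19 mice (14 pairs). The strongest pairs were Lef1 with Rgs16 in aged mice (0.74), Lef1 with Zic1 at 10 months (0.91) and Synpo2 with Rgs16 in PS19 mice (0.96).

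Prkcd was related unevenly to the other members. Its median r with the other 8 was 0.39 in aged mice, 0.50 at 10 months and 0.50 in PS19 mice. It was the lowest of the 9 members in PS19 mice only, whereas Ntng1 was lowest in aged mice (0.095) and Plekhg1 at 10 months (-0.017). In aged mice its r was 0.72 with Plekhg1 (rho 0.65), 0.58 with Synpo2 (rho 0.40) and 0.49 with Zic1 (rho 0.33), but 0.04 with Rgs16 (rho 0.06) and -0.30 with Ntng1 (rho -0.35). Leaving out the 2 libraries farthest from the median of Prkcd kept 0.63 for Plekhg1 and left 0.34 for Synpo2 and 0.22 for Zic1. In PS19 mice r ran from 0.44 (Ramp3) to 0.58 (Synpo2) while rho was 0.08 and 0.31, and without the 2 high libraries all 8 values of r were negative, from -0.05 (Lef1) to -0.49 (Ntng1). At 10 months r with Tcf7l2 was 0.55 (rho 0.54) and 0.36 without vector replicate 2. Tcf7l2 tracked the second thalamic list more closely, with r of 0.87 in aged mice and 0.91 at 10 months, and Synpo2 did so in PS19 mice (0.97). In all 3 tables the members' median r with that list was positive (0.65, 0.70 and 0.93). At 10 months and in PS19 mice these list correlations include the high libraries, where that list was high too. Values without them are not given.

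**Figure D4:**
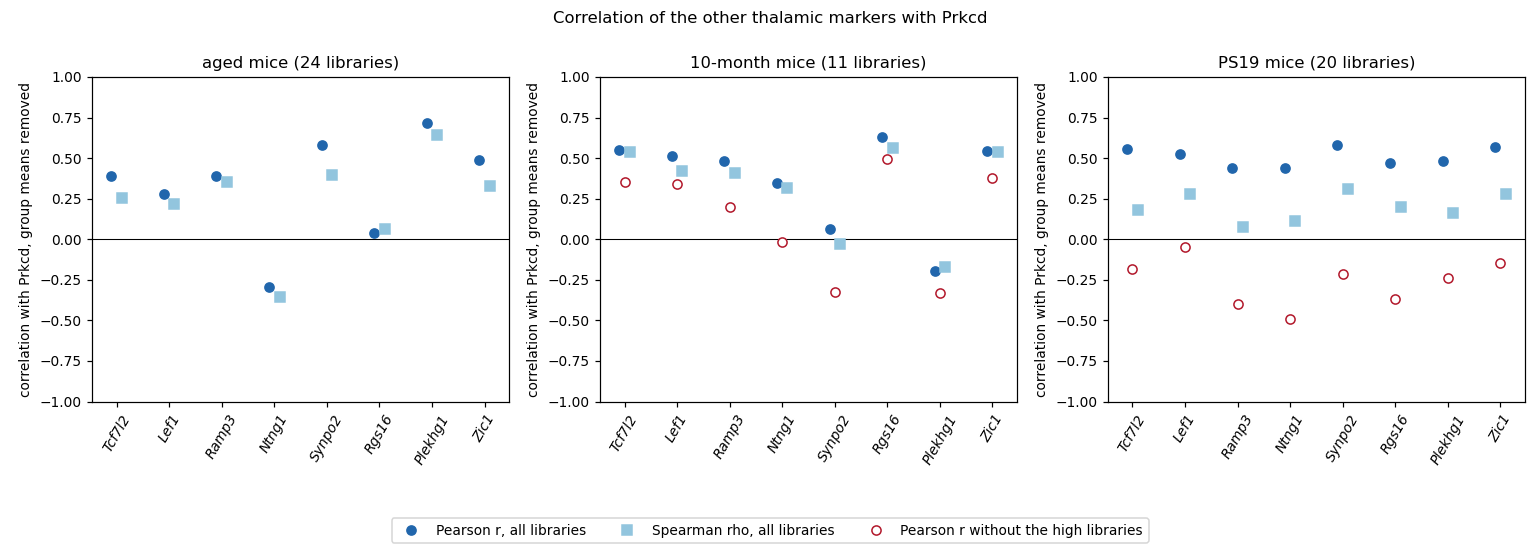
Correlation (y axis) between Prkcd and each other member (x axis) across libraries of a table, group means removed: Pearson r with all libraries (filled circles), Spearman rho (squares) and Pearson r without the high libraries (open circles). In PS19 mice the filled circles lie between 0.44 and 0.58 and the open circles between -0.49 and -0.05.

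In the aged mice some members followed the replicate numbers. Lef1 had a median of 3.64 CPM (2.03 to 6.12) in the 6 libraries numbered 1 to 3 and 1.78 CPM (1.13 to 3.20) in the 18 numbered 4 to 12. Plekhg1 had 27.2 CPM against 17.2, Ntng1 58.5 against 46.6, and Prkcd 28.7 against 22.4. Markers of endothelium differed without overlap between these sets (169 to 250 against 65.9 to 135 summed CPM), and the r of Lef1 with that list over the 24 libraries was 0.75 (rho 0.63) and of Plekhg1 0.67 (rho 0.54). Tcf7l2 (5.59 against 5.84 CPM) and Synpo2 (7.14 against 7.17) showed no such gap. The labels name no batch, and both virus groups hold both sets.

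The genes most like the members were ranked by the lowest of their 3 correlations with the members' mean log2 CPM, 1 in each mouse table, among 12137 other genes. The 10 at the top were Amotl1 (0.72), Patj (0.70), Zic2 (0.70), Pmp22 (0.65), Adarb1 (0.64), Akap12 (0.63), Slc17a6 (0.63), Gpr153 (0.62), Rora (0.61) and Tom1l1 (0.61). Amotl1 and Patj encode proteins of cell junctions and polarity, Zic2 a close relative of Zic1, Slc17a6 the vesicular glutamate transporter of thalamic and other subcortical neurons, and Rora a nuclear receptor of thalamic neurons. The median over the pool was -0.27, and 34 genes exceeded 0.5. With Spearman in place of Pearson, 4 of the 10 stayed in the top 10. Of the second thalamic list, 6 of 9 genes were abundant enough to be ranked. Amotl1, Slc17a6 and Rora were among the top 10, whereas Tnnt1, Zfhx3 and Cacna1g had ranks of 29, 121 and 1721. Without the high libraries, r fell to 0.03 at 10 months and -0.08 in PS19 mice for Adarb1 and to -0.11 at 10 months for Rora, but was 0.85 and 0.47 for Zic2.

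Cultured neurons from embryonic hippocampus also held the members' RNA, with each table scaled separately. The unstimulated and stimulated culture tables had 25239 gene rows, against 55367 in the mouse tables and in that of cultures without virus. Differences in CPM between these sets can therefore also reflect how genes were counted, which was not tested. The summed members had a median of 131.4 CPM in mice, 53.7 at day 9, 73.9 at day 21, 88.8 in stimulated cultures and 157 in cultures without virus. The second thalamic list had a median of 156 CPM in mice and 256 in cultures without virus, so the cultures did not hold these lists at 0. Ntng1 was higher in all 55 mouse libraries (20.6 to 100.3 CPM, median 38.4) than in any of the 43 cultures (1.95 to 14.4 CPM, median 5.77), a ratio of medians of 6.66. For the other 8 members except Rgs16, the order of mice and cultures differed between the culture sets. Prkcd had a median of 26.6 CPM in mice, 5.28 at day 9, 11.6 in stimulated cultures and 32.2 without virus. Synpo2 had 7.07 CPM in mice, 2.54 to 5.88 in the 3 sets with virus and 16.7 without virus. Zic1 had 9.35 CPM in mice, 4.01 at day 9, 9.97 in stimulated cultures and 23.1 without virus. Plekhg1 had 24.6 CPM in mice, 14.3 at day 21 and 31.7 without virus. Lef1 had 1.87 CPM in mice against 0.968 to 1.93 in the culture sets. Of these 8, Rgs16 alone had every culture median on 1 side of the mice (8.67 to 11.8 CPM against 7.25), in values that were not tested. Tcf7l2 had 5.31 CPM in mice, 1.79 at day 9, 9.09 at day 21 and 14.8 without virus, and Ramp3 had 4.61, 2.09, 10.7 and 15.3 in the same order. The highest Tcf7l2 in culture was 27.1 CPM, which only the 3 high mouse libraries exceeded. Ramp3 reached 81.5 CPM in 1 day 21 culture without virus (PBS replicate 3), above every mouse library. The next highest culture without virus held 18.6 CPM. In that PBS library 438 of 13223 genes considered were at least 2 times the next library of the table, so the value rests on 1 unusual library.

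**Figure D5:**
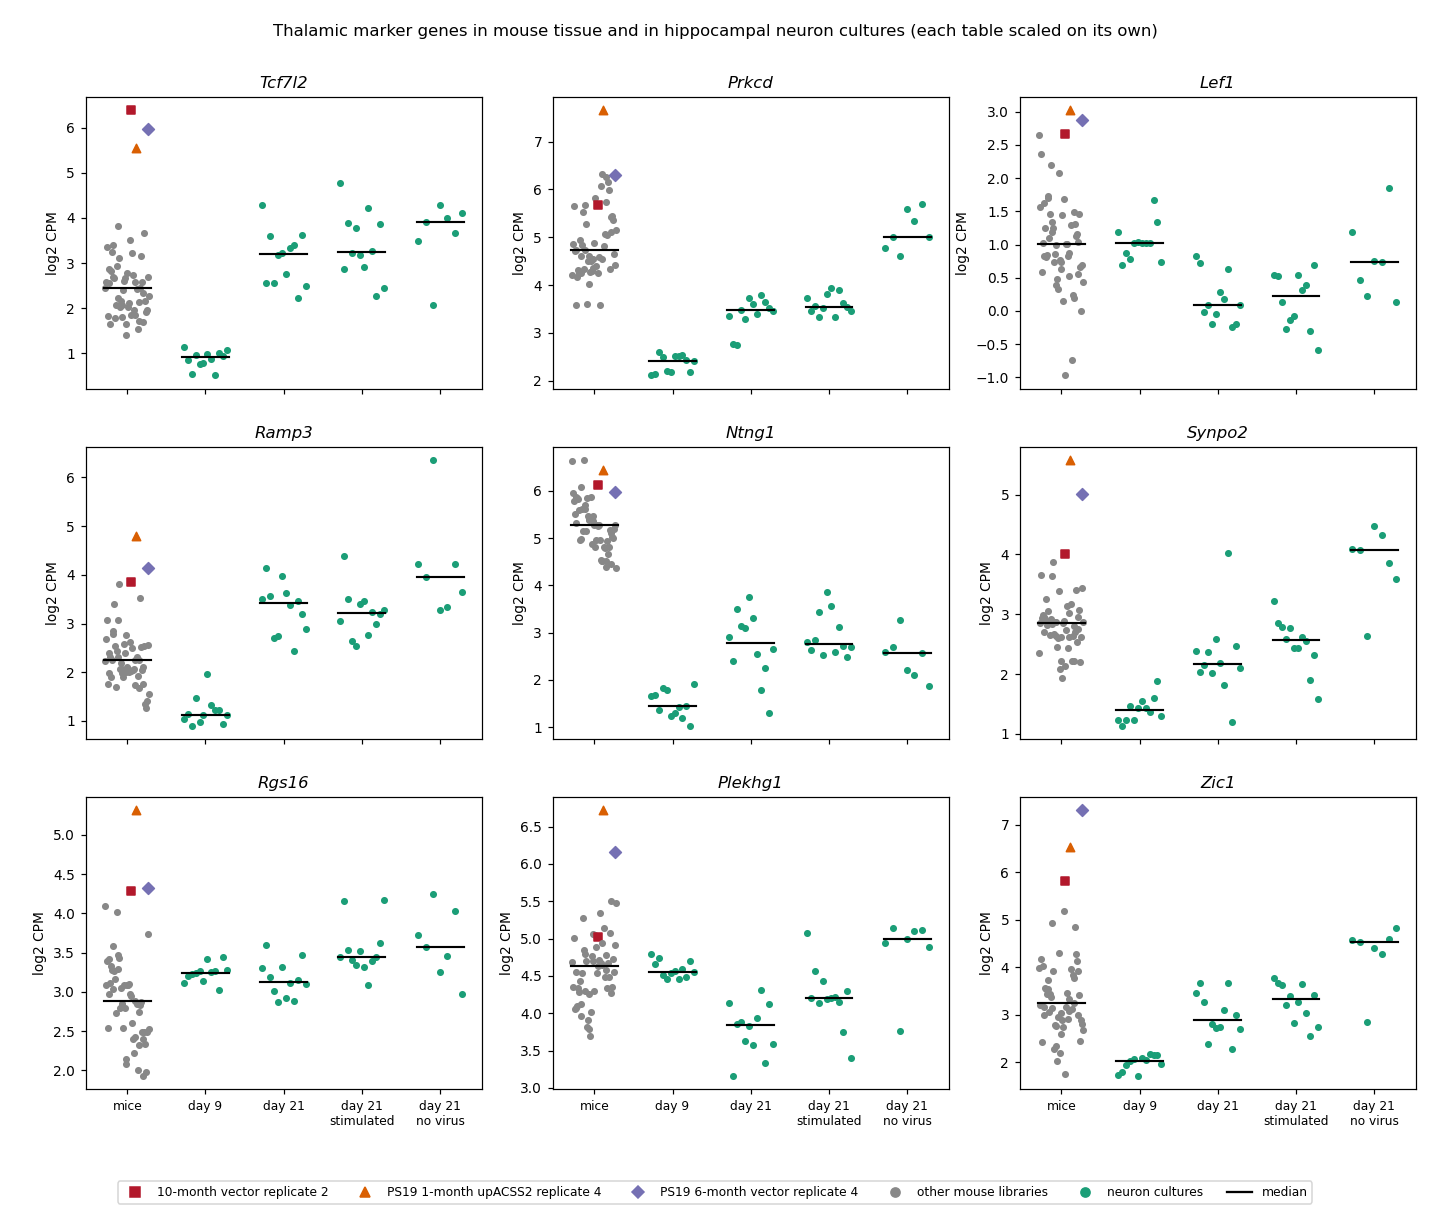
log2 CPM (y axis) of each member in the mouse libraries and in cultures at day 9, at day 21, stimulated and without virus (x axis). Points are libraries and lines are medians. Ntng1 in mice (20.6 to 100.3 CPM) does not overlap the cultures, whereas Tcf7l2, Ramp3 and Rgs16 in day 21 cultures overlap the mice.

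Culture age was tested in vector neurons in PBS. With 3 libraries at each age, 9 of 9 members passed the edgeR test for day 21 against day 9, where 57.7% of genes did, and the groups did not overlap for 9 of 9, nor for 58.3% of genes. Tcf7l2 rose from 1.90, 1.75 and 1.33 CPM to 6.62, 9.93 and 10.4 CPM (2.42 ± 0.38 on the log2 scale, edgeR adjusted p = 2.2e-05), and every day 21 library was above every day 9 library. Prkcd rose from 5.61, 5.67 and 5.70 to 12.2, 10.5 and 13.7 CPM (1.10 ± 0.17, adjusted p = 1.7e-05). Zic1 rose from 4.17, 4.04 and 4.42 to 6.62, 8.47 and 12.5 CPM (1.14 ± 0.20, adjusted p = 8.5e-05).

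Ramp3 (1.67 ± 0.33), Synpo2 (1.61 ± 0.41) and Ntng1 (1.38 ± 0.38) also rose, with edgeR adjusted p of 0.00025, 0.0021 and 0.0038. Lef1 (-0.66 ± 0.24, adjusted p = 0.025), Plekhg1 (-0.56 ± 0.20, adjusted p = 0.021) and Rgs16 (-0.35 ± 0.14, adjusted p = 0.040) fell. In the other 3 unstimulated pairs, which were not tested for age, the mean log2 CPM of Rgs16 was 3.36 at day 21 and 3.18 at day 9 in upACSS2 neurons in PBS, 3.24 and 3.25 in vector neurons with tau, and 3.06 and 3.21 in upACSS2 neurons with tau. The 3 falls were the least stable: leaving out 1 of the 6 libraries kept the call for Lef1 and Rgs16 in 1 of 6 fits and for Plekhg1 in 2 of 6. Synpo2 kept its call in 5 of 6 and was at 0.56 without day 21 replicate 3. In a fit of these 2 groups alone, Lef1, Rgs16 and Synpo2 did not pass (6 of 9 members did).

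Glial markers differed between the culture ages as well. The oligodendrocyte list summed to 36.9 to 48.1 CPM in 12 day 9 libraries and to 282 to 1844 in 12 day 21 libraries, and the astrocyte list to 2099 to 2598 and 3209 to 18295. Over the 12 day 21 libraries, group means removed, Tcf7l2 had an r of 0.94 with the oligodendrocyte list (rho 0.94), Plekhg1 0.94 (rho 0.91), and Synpo2 0.96 with the astrocyte list (rho 0.96). In the 12 stimulated libraries r with the oligodendrocyte list was 0.79 for Tcf7l2, 0.85 for Plekhg1 and -0.89 for Rgs16. The highest astrocyte sum, in vector PBS replicate 3 at day 21, fell in the library with the highest Synpo2 of its group (16.1 CPM, others 4.46 and 3.42). The part of glia in the members' rise was not tested. In mice the r of Tcf7l2 with the oligodendrocyte list was 0.01 (aged, n = 24), 0.51 (10 months, n = 11) and 0.25 (PS19, n = 20).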

How the data were processed

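RNA-seq of 55 mouse hippocampi and 43 neuron cultures was analysed from raw counts per gene deposited by the authors in 6 tables. Per the labels' protocols, total RNA was purified with Trizol and columns, and libraries were made from 130 ng with an NEB kit. Per the submitters' processing notes, STAR, featureCounts, HTSeq and DESeq2 were used with build mm10; their roles, versions, annotation and strand setting are not given in the sources used here. Without strand, overlapping and antisense genes cannot be told apart.

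The 9 members and the marker lists were chosen with earlier results of these data known. All 9 were named throughout; genes most alike were the 10 with the highest lowest correlation over the 3 mouse tables (mean log2 CPM of at least 1), and genes named outside these rules are marked. Counts were tested with edgeR 4.0.16 (R 4.3.3): quasi-likelihood F test, TMM scaling, default filter by group, 1 fit per table, Benjamini-Hochberg adjustment over all genes tested, threshold 0.05, two-sided. log2 CPM used a prior count of 2. DESeq2 1.42.0, other scaling, no filter, a replicate block, the members' mean as a covariate and leaving out each library were alternatives. In aged mice single libraries were not left out. There, replicates 1 to 3 and replicates 4 to 12 were each fitted alone. No library matched another of its group to within counting noise (242 pairs compared; the lowest chi-square per gene was 2.24). The labels number the libraries of a group; each was taken as a separate mouse or culture, which they do not state, so p-values measure the spread between these samples. Exon lengths came from GENCODE (GRCm38) and promoter sequences from RefSeq, which matched all 9 genes.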

Additional observations from a re-analysis of the deposited data

Results flagged for a closer look

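Each member was checked, on the log2 CPM scale, in the 6 mouse groups and 1 culture group of 4 to 6 libraries (63 checks). By Dixon's criterion, which chance meets in about 1 of 20 groups, 12 values stood apart from the rest of their group. The checks share libraries, so the count cannot be set against that rate. All but 1 of the 12 values fell in the 3 high libraries, which the members themselves singled out. In the library labelled PS19 upACSS2 replicate 4 at 1 month these were Tcf7l2 at 46.6 CPM (others 3.50 to 5.81), Ramp3 at 27.5 (others 3.23 to 4.82), Ntng1 at 87.2 (others 22.7 to 27.8), Synpo2 at 47.5 (others 5.28 to 8.87), Rgs16 at 39.6 (others 4.52 to 7.25), Plekhg1 at 105 (others 25.0 to 35.3) and Zic1 at 92.7 (others 7.39 to 15.4). In PS19 vector replicate 4 at 6 months they were Tcf7l2 at 62.8 CPM (others 3.66 to 6.34), Lef1 at 7.21 (others 0.88 to 1.49) and Zic1 at 158 (others 5.37 to 7.27). Ntng1 stood apart in 10-month vector replicate 2 at 69.8 CPM (others 31.0 to 38.7). The remaining value was low: Rgs16 at 3.69 CPM in PS19 upACSS2 replicate 3 at 6 months, where the others held 4.94 to 5.51.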

How the results depend on the processing

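The number of members called was the same under every alternative run in all 7 mouse comparisons (0 of 9), and in the neurons it was 6 to 7 of 9 when 1 library was left out, 6 with only the groups compared, 8 without the filter and 9 with DESeq2, other scaling or the replicate block. Of 1043 alternative fold changes of members, 47 changed sign and 19 lost the call; the cause was not tested beyond the library removed. In aged mice, replicates 4 to 12 alone gave -0.050 for Ramp3, -0.056 for Synpo2 and 0.042 for Plekhg1, and replicates 1 to 3 alone gave 0.041 for Prkcd. The interaction was also fitted with both high PS19 libraries removed, an alternative chosen after seeing the data. It was then 0.49 for Tcf7l2, 0.54 for Prkcd, 0.45 for Lef1, 0.65 for Ramp3 and 1.61 for Zic1. It stayed negative for Ntng1, Synpo2, Rgs16 and Plekhg1.

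Replicate numbers did not pair the samples: correlations of same-numbered libraries ran from -0.09 to 0.45 in aged mice and from -0.30 to 0.07 in PS19 vector mice. With a replicate block, 0 of 9 members were called in every mouse comparison, and signs turned for Zic1 at 1 month (-0.027), Lef1 (0.14) and Zic1 (0.068) at 6 months, Ramp3 (-0.15) and Zic1 (-0.10) in vector mice over time and Zic1 in the interaction (0.10). The block moved the genes called from 0 to 13 in aged mice, from 1182 to 782 in vector mice over time and from 7 to 0 in upACSS2 mice over time.

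Leaving out 1 library at a time turned a sign for these estimates, given from lowest to highest. At 10 months they were Prkcd -0.49 to 0.10, Lef1 -0.77 to 0.19, Rgs16 -0.58 to 0.027 and Plekhg1 -0.14 to 0.080. In PS19 mice at 1 month they were Tcf7l2 -0.063 to 1.77, Prkcd -0.13 to 0.82, Ramp3 -0.43 to 1.12, Ntng1 -0.072 to 0.68 and Zic1 -0.51 to 1.25. At 6 months they were Tcf7l2 -1.81 to 0.44, Prkcd -0.19 to 0.42, Lef1 -0.49 to 0.69, Ramp3 -0.84 to 0.24, Synpo2 -0.82 to 0.13 and Zic1 -1.65 to 1.11. In vector mice over time they were Tcf7l2 -0.067 to 2.07, Lef1 -0.27 to 1.00, Ramp3 -0.76 to 0.54 and Zic1 -1.19 to 1.69. In upACSS2 mice over time they were Tcf7l2 -1.55 to 0.44, Lef1 -0.79 to 0.20, Ntng1 -0.42 to 0.34, Synpo2 -1.18 to 0.13 and Zic1 -1.18 to 0.44. In the interaction they were Prkcd -0.80 to 0.15 and Zic1 -2.65 to 0.22.

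Counts of all genes called moved by over 1.5 times with DESeq2 (1901 against 1182 in vector mice over time, 176 against 7 in upACSS2 mice over time, 135 against 0 at 6 months), without the filter (656 and 4 over time) and without single libraries (394 to 1396 in vector mice over time, 488 without vector replicate 4; 0 to 16 in upACSS2 mice over time; 0 to 82 at 6 months, 82 without upACSS2 replicate 4). With the members' mean as a covariate, 880 non-member genes were called in vector mice over time, 873 of them among the 1182, and in upACSS2 mice over time the count went from 7 to 2. Depth limited Lef1 most, whose lowest count was 2.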
